A study of Mus musculus with 6 samples.

Results

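The genes described here are 7 markers of the adipocyte, the fat-storing cell: Adipoq, Plin1, Plin4, Fabp4, Cfd, Retn and Lep. They were chosen by name, and a gene was measured where the array annotation assigns a probe set to its symbol alone. Of the 7 genes, 5 had such a probe set, with 8 probe sets in all among 45101 on the array, which named 18194 genes. Plin1 and Cfd were not analysed here. Adipoq, Plin4, Retn and Lep were each read by 1 probe set and Fabp4 by 4.

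The mice were male C57BL/6J animals 7 weeks old (the strain field of the labels spells it C576B6/J). Control mice (CON) received a basal diet and ordinary water. DSS mice were fed the same diet and, after 7 days of ordinary water, drank 1.5% (w/v) dextran sodium sulphate (DSS), a sulphated polymer that damages the lining of the colon and produces colitis, for 10 days by their treatment protocol. DSSPAR mice ate the basal diet with 2% parsley (PAR) from the start and drank 1.5% DSS after the first 7 days, for 9 days by their treatment protocol, so by these protocols diet and length of exposure differed together between DSS and DSSPAR. The growth protocol names only 9 days, in wording that could cover both groups, so the difference in exposure is uncertain. RNA of 7 mice was pooled per group, and 1 Affymetrix array was hybridised per group and tissue, 3 for colon and 3 for liver. Each comparison is therefore between 2 pools without replicates, no p-value can be given, and the number of arrays limits the precision. In pooled tissue RNA, fewer cells of a type cannot be told apart from less RNA per cell.

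White adipocytes store triglyceride in a single large droplet coated by perilipins and release it as fatty acids, which fatty acid binding proteins carry through the cytosol. They also act as an endocrine organ: adiponectin (Adipoq), leptin (Lep) and resistin (Retn) are hormones, and adipsin (Cfd) is the protease that starts the alternative complement pathway. The colon wall carries attached mesenteric fat, whereas the healthy liver holds few adipocytes and keeps its own fat inside hepatocytes. Fabp4 is also made by macrophages and by capillary endothelium, so it is less restricted to fat than Adipoq or Lep.

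Transcription of adipocyte genes is driven by PPARG, a nuclear receptor, and by C/EBP factors. The 100 bases before the start site are shown for both hormone genes whose colon intensity was highest in DSS and close to the floor elsewhere, Adipoq and Retn, and for Lep, which lay below the floor throughout. The sequences are RefSeq's on GRCm38.p6, plus strand, 5′ to 3′, at chr16:23146436-23146535, chr8:3655670-3655769 and chr6:29060121-29060220. Capitals mark a match to TTNNGCAA, a C/EBP-type motif.
Adipoq: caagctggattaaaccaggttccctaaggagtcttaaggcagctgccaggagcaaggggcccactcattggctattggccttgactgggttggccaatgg
Retn: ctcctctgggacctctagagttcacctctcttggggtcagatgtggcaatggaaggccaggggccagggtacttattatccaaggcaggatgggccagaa
Lep: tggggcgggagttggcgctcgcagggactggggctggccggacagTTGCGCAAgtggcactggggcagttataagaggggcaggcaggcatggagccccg

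AGGTCA (a nuclear receptor motif), TTNNGCAA and TATAAA (the TATA box) were searched on both strands of the 250 bases before the start. Of the 7 genes, 6 had a promoter entry, all but Fabp4. In Lep the palindrome TTGCGCAA, at positions -55 to -48, matched TTNNGCAA on both strands, and it was the only match among the 4 measured genes with an entry. Among all 32851 promoter windows, 14.0% held AGGTCA, 9.56% TTNNGCAA and 12.4% TATAAA, so windows without these letters are common.

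The tissue labels were met by the markers of each tissue. All 10 colon epithelium markers lay above the floor on the 3 colon arrays, and all 9 measured hepatocyte markers on the 3 liver arrays. The floor, the median of all intensities in a tissue, was 25.1 in colon and 96.6 in liver. Intensities below it were raised to it before a ratio was taken, and a fold against such a value is given as "at least". The tissues were scaled apart, so their levels were not compared. Probe sets of 1 gene disagreed with a robust SD of 0.36 to 0.43 log2 units in colon and 0.47 to 0.56 in liver, which is the only spread these data offer. It compares probe sets on the same arrays, so it leaves out variation between pools or mice. A ratio larger than it is not thereby beyond that variation.

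The label of adipocyte markers was met in part. In colon Adipoq, Plin4 and Fabp4 were above the floor on all 3 arrays, Retn on 1 and Lep on none. In liver Adipoq and Lep, a pair that marks fat cells most specifically, were below the floor on all 3 arrays, Retn was above it on 1, Plin4 on 2 and Fabp4 on 3. The liver values of Fabp4 and Plin4 therefore stood beside Adipoq and Lep values below the floor. The floor is a working threshold and not a limit of detection.

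Adipoq, the adiponectin gene, had colon intensities of 28.3 in CON, 82.5 in DSS and 31.6 in DSSPAR. The DSS array stood alone, and the other arrays lay just above the floor. Adipoq was 2.92-fold higher in DSS than in CON (log2 ratio 1.55) and lower by 2.61-fold in DSSPAR than in DSS (log2 ratio -1.38), and DSSPAR was within 1.12-fold of CON. These comparisons share the DSS array, so a chance high value on it would give both differences.

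Retn, the resistin gene, showed intensities of 18.2 in CON, 32.8 in DSS and 16.0 in DSSPAR colon. Only the DSS value passed the floor, so Retn entered the comparisons through the array in which it was high. The DSS value was at least 1.31-fold above either of the others, short of 2-fold. Lep read 0.76, 2.74 and 3.03 in CON, DSS and DSSPAR, all below the floor, and no fold is given.

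Plin4 encodes a perilipin of small nascent lipid droplets that is abundant in white fat. Its colon intensities were 64.4 in CON, 67.7 in DSS and 53.9 in DSSPAR, the narrowest range among the 3 members above the floor on every colon array. Its log2 ratio was 0.071 between DSS and CON, -0.33 between DSSPAR and DSS and -0.26 between DSSPAR and CON, each smaller than the disagreement between probe sets of 1 gene. The last of these was 0.023 with arrays centred on their medians. Plin4 thus did not share the Adipoq pattern in these arrays.

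Fabp4 encodes the fatty acid carrier of adipocytes. Its brightest colon probe set, 1417023_a_at, read 259 in CON, 705 in DSS and 514 in DSSPAR. DSS was 2.72-fold above CON and 1.37-fold above DSSPAR, and the gene was 1.99-fold higher in DSSPAR than in CON. Here both DSS-treated pools lay above CON, unlike the Adipoq readings.

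The other Fabp4 probe sets gave different pictures in colon. Probe set 1451263_a_at read 237, 360 and 403 in CON, DSS and DSSPAR, again above CON in both treated pools, but with log2 ratios of 0.60 for DSS against CON and 0.16 for DSSPAR against DSS, so the probe sets disagreed on the sign of the latter. Probe set 1425809_at read 25.2, 15.8 and 9.28, and 1424155_at 3.996, 12.2 and 7.57. Both were at or under the floor except for the CON value of 1425809_at, and neither carries a ratio that can be read. Fabp4 therefore rests on its 2 bright probe sets. They were above CON in DSS, but only 1 of them passed 2-fold.

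**Figure D1:**
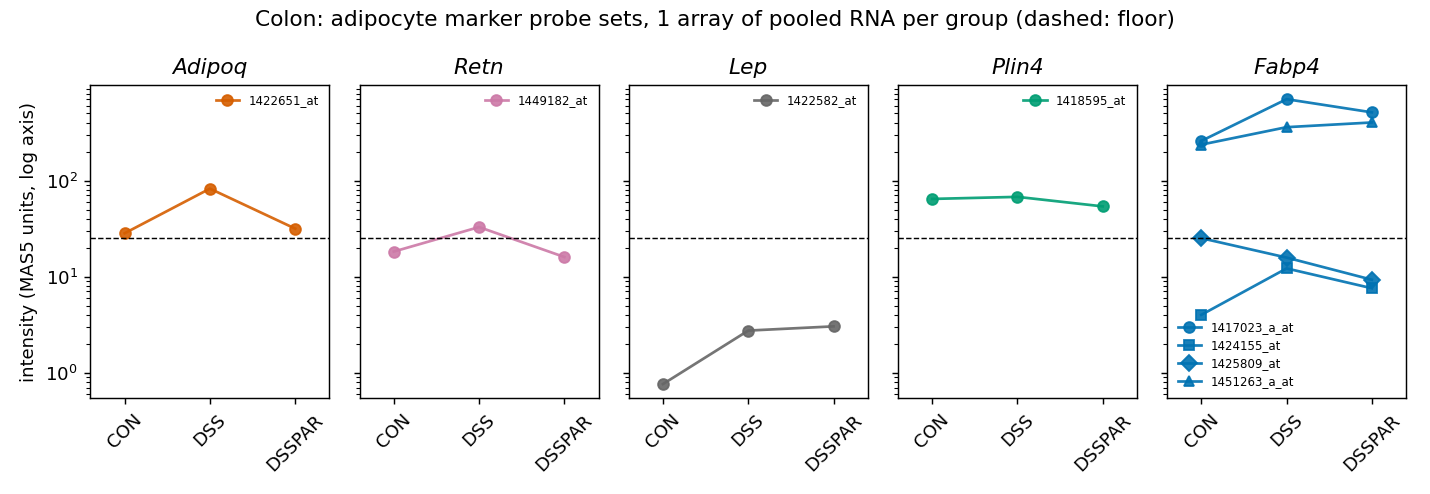
Intensity in MAS5 units on a log axis of each adipocyte marker probe set in colon, with 1 point per array of pooled RNA (CON, DSS, DSSPAR), lines joining the values of 1 probe set and the floor of 25.1 dashed. Adipoq peaked in DSS at 82.5 and Retn at 32.8, Plin4 stayed between 53.9 and 67.7, Lep stayed below the floor, and both bright Fabp4 probe sets were lowest in CON.

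Counted over the list, 2 of 4 measured members, Adipoq and Fabp4, were at least 2-fold higher in DSS than in CON colon, and none was lower. Of all 11952 genes measured in that comparison 5.18% were at least 2-fold higher and 1.97% lower. The median log2 ratio was 0.92 over the members and 0.042 over all genes. For DSSPAR against DSS, 1 of 4, Adipoq, was at least 2-fold lower and none higher (median -0.42), where 1.24% of 11730 genes were lower (median -0.013) and 0.392% higher. For DSSPAR against CON none of 3 passed 2-fold in either direction (median 0.16), where 3.51% of genes were higher and 2.1% lower (median 0.027). With arrays centred on their medians, Fabp4 passed 2-fold in that last comparison, at a log2 ratio of 1.27. The members were picked for their known role in fat and with earlier results of these arrays known, and a gene that passed the floor only where it was high had to differ, so these counts describe the members and test nothing.

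In liver Fabp4 was the only member above the floor on all 3 arrays. Probe set 1417023_a_at read 1478 in CON, 3796 in DSS and 945 in DSSPAR. DSS was 2.57-fold above CON and 4.02-fold above DSSPAR, and the gene was 1.56-fold lower in DSSPAR than in CON. Probe set 1451263_a_at, at 880, 2021 and 549, gave the same order of the 3 arrays. Its log2 ratios were 1.20 for DSS against CON and -1.88 for DSSPAR against DSS. Probe set 1425809_at, at 158, 110 and 12.1, was highest in CON instead, with a log2 ratio of -0.52 for DSS against CON, and 1424155_at was below the floor on every liver array (45.9, 8.74 and 3.26). The difference of 1425809_at between DSS and CON was within the disagreement between probe sets of 1 gene.

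Plin4 read 46.5 in CON liver, 204 in DSS and 143 in DSSPAR. Both treated pools were above the floor and CON was below it, so Plin4 was at least 2.11-fold higher in DSS and at least 1.48-fold higher in DSSPAR than in CON. DSSPAR was 1.43-fold lower than DSS. Plin4 entered the comparisons with CON only through the arrays in which it was high.

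Retn had liver intensities of 134 in CON, 16.8 in DSS and 11.98 in DSSPAR. It was above the floor in CON alone and at least 1.39-fold lower in either treated pool, short of 2-fold. Adipoq read 57.0, 42.6 and 4.38 and Lep 43.2, 34.0 and 17.7 in CON, DSS and DSSPAR, all below the floor, and no order was read from them.

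**Figure D2:**
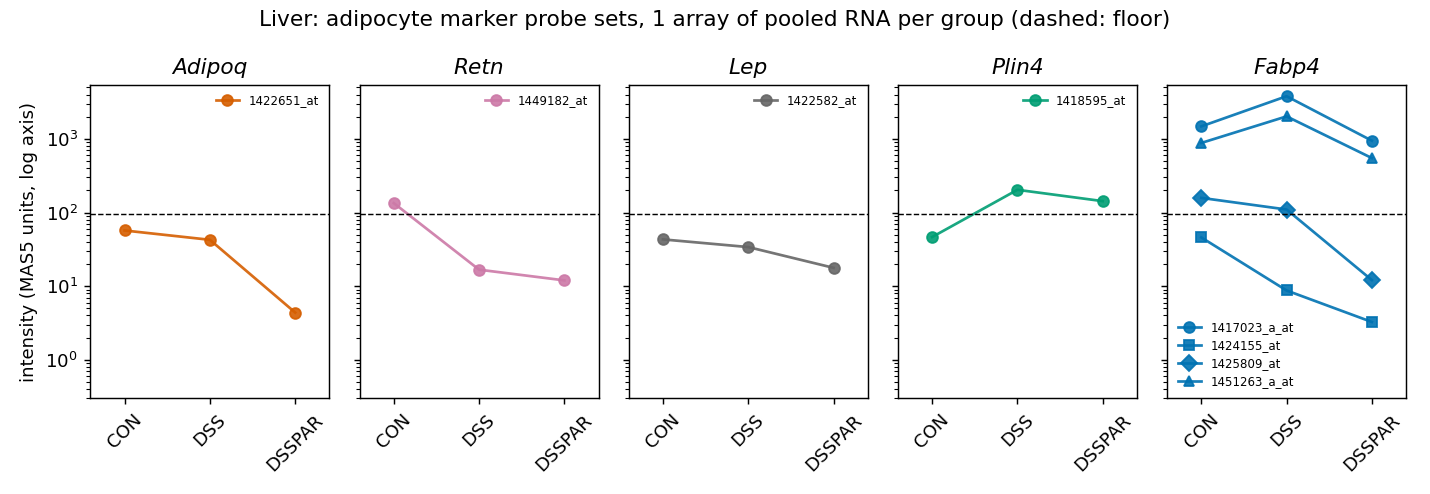
Intensity in MAS5 units on a log axis of each adipocyte marker probe set in liver, drawn as for colon with the floor of 96.6 dashed. Both bright Fabp4 probe sets peaked in DSS, Plin4 was above the floor in DSS and DSSPAR, Retn was above it in CON alone, and Adipoq and Lep never were.

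Of 3 measured members in liver, Fabp4 and Plin4 were at least 2-fold higher in DSS than in CON and none was 2-fold lower. Among 13034 genes 4.73% were that much higher and 4.2% lower, and the median log2 ratio was 1.07 for the members and -0.018 for all genes. That member median is the bound of Plin4. Over all 5 members without a floor it was -0.35, of opposite sign, which is the ratio of Lep, below the floor on every liver array. For DSSPAR against DSS, Fabp4 was the 1 of 2 that was at least 2-fold lower and none was higher (median -1.26), beside 4.23% of 12398 genes lower and 2.8% higher (median -0.019). For DSSPAR against CON none of 3 passed 2-fold either way (median -0.47, the bound of Retn), beside 3.26% of genes higher and 3.45% lower (median -0.040). Over all 5 members without a floor the median was -1.28, again the ratio of Lep. The shares of all genes depended on scaling. With arrays centred on their medians, 71.0% of the liver genes past 2-fold in DSS against CON were higher, against 52.9% with the deposited scaling.

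Relatives of the members in the same protein families did not share 1 course. In the perilipin family, Plin2, the droplet coat of most cell types, read 958, 1192 and 1592 in CON, DSS and DSSPAR colon, highest where Adipoq was back near CON. Plin3 read 247, 260 and 228 there. Plin5, a perilipin of oxidative tissue, was below the floor in colon. In liver Plin2 read 16227, 10226 and 9812 and was 1.59-fold lower in DSS than in CON, opposite in direction to Plin4. Liver Plin3 (773, 935 and 829) stayed within 1.21-fold of CON. Liver Plin5 (1807, 1840 and 1248) was 1.47-fold lower in DSSPAR than in DSS.

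Among the fatty acid binding proteins, Fabp5, the epidermal and macrophage form, had the same order of colon arrays as the brightest Fabp4 probe set. The other bright Fabp4 probe set was highest in DSSPAR instead. Fabp5 read 290, 909 and 828 in CON, DSS and DSSPAR and was 3.13-fold higher in DSS than in CON, with both of its probe sets above CON. Fabp2, the enterocyte form, went the other way, at 2092, 297 and 583. Fabp6, the ileal bile acid carrier, was 2.64-fold higher in DSSPAR than in CON (356 against 135). Fabp1, Fabp3, Fabp7 and Fabp9 were below the floor in colon.

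In liver Fabp5 read 42892, 46307 and 50176 and stayed within 1.17-fold of CON, and Fabp1, the hepatocyte form, read 122680, 143567 and 83627. Fabp7, the brain form, was 3.71-fold higher in DSS than in CON (1626 against 438). Fabp2 was 3.18-fold lower in DSSPAR than in CON. Fabp3 fell short of 2-fold in every liver comparison, at 165, 152 and 103. Fabp6 was above the floor in CON alone, at 118, and at least 1.22-fold lower in DSS. Fabp9 was below the floor. Only Fabp4 and Fabp7 of the 7 forms measured in liver were 2-fold higher in DSS than in CON, beside 4.73% of all genes.

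The resistin family has members outside fat. Retnlb, a goblet cell protein, read 187 in CON, 1285 in DSS and 1724 in DSSPAR colon, 6.87-fold higher in DSS than in CON. Retnla read 137, 174 and 251. Neither was lower in DSSPAR than in DSS. Retn was, but it lay below the floor in both CON and DSSPAR colon, so no return toward CON can be read for it. In liver Retnla read 121, 144 and 30.6 and Retnlb was below the floor. Probe sets of related genes can share hybridising RNA, which was not tested here.

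Adiponectin belongs to the C1q and TNF related proteins. Of 8 measured for DSS against CON in colon, Adipoq was the 1 past 2-fold, beside 5.18% of all genes higher and 1.97% lower. C1qtnf2 read 33.8, 57.5 and 46.5, the Adipoq order with smaller differences, C1qtnf12 read 171, 122 and 203, and C1qtnf3 was above the floor in CON alone at 43.8. In liver, where Adipoq was below the floor, C1qtnf1 was 2.32-fold higher and C1qtnf6 2.25-fold lower in DSS than in CON. Of the alternative complement pathway that adipsin starts, 1 of 6 measured genes was at least 2-fold higher in DSS than in CON colon, the anaphylatoxin receptor C3ar1 (2.98-fold), and none was lower. Cfb, the substrate of adipsin, read 249, 418 and 426. In liver 2 of 7 were at least 2-fold higher, Cd55, a decay accelerator (2.24-fold), and Cfp, properdin (2.14-fold). Of all genes 4.73% were that much higher in liver.

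The other fat cell genes were read from lists of the pathway. Of 16 further adipocyte-enriched genes, 12 were measured for DSS against CON in colon: 3 were at least 2-fold higher and 1 lower (median log2 ratio 0.078). Beside these stood 5.18% of all genes higher and 1.97% lower. Angptl4, an inhibitor of lipoprotein lipase, was, like Adipoq, highest in DSS, at 34.6 in CON, 87.5 in DSS and 28.9 in DSSPAR. Car3, a carbonic anhydrase abundant in fat, had DSS highest too, at 199, 580 and 280, although 1 of its 3 measured probe sets lay on the other side of CON, at a log2 ratio of -0.019. Nnmt, a methyltransferase of nicotinamide, read 25.3, 66.0 and 50.1. Pck1, the gluconeogenic enzyme that fat uses to make glycerol, was 2.95-fold lower in DSS than in CON. For DSSPAR against DSS 2 of 11 were at least 2-fold lower, Angptl4 (3.03-fold) and Car3 (2.07-fold), and none was higher. Of all genes 1.24% were that much lower and 0.392% higher.

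Genes of fat uptake and lipolysis differed less. None of 13 measured in colon passed 2-fold for DSS against CON (median 0.23) or for DSSPAR against DSS (median -0.16, and 0.040 with arrays centred on their medians). Cd36, a fatty acid receptor, read 60.2, 100.04 and 58.4, and Lpl, the lipase that frees fatty acids from lipoproteins, read 259, 379 and 230, so DSS was the highest array for both. Lipe, the hormone-sensitive lipase, was above the floor in DSS alone (30.6). Of 14 fat synthesis and storage genes 1 was lower, Gpam, the first enzyme of triglyceride assembly (2.11-fold), and none was higher (median -0.023, and above 0 with arrays centred on their medians). Cidec, which fuses droplets in white adipocytes, was below the floor in each colon array.

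Among 6 measured adipocyte transcription factors, Cebpd and Cebpb, also induced in inflammation, were 3.41-fold and 3.36-fold higher in DSS than in CON colon and none was 2-fold lower (median -0.36). Of all genes 5.18% were at least 2-fold higher there and 1.97% lower. Pparg itself read 226 in CON, 167 in DSS and 210 in DSSPAR, lowest where Adipoq was highest, and Cebpa read 83.6, 56.4 and 93.5. Of the brown adipocyte markers, Ucp1 and Cidea were below the floor on every colon and liver array. Dio2, the deiodinase that makes active thyroid hormone, read 7.39, 57.3 and 19.7 in colon, above the floor in DSS alone. It was the 1 of 3 brown markers measured for DSS against CON in colon that was higher, and 2 were lower (median -0.69). Ppargc1a was among the lower, at 557 in CON and 345 in DSS. In liver 2 of 4 were at least 2-fold lower in DSS than in CON, beside 4.2% of all genes, led by Elovl3 (9.95-fold). None was 2-fold higher there (median -0.98).

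Receptors of these hormones stayed close to CON in colon, less so in liver. In colon the adiponectin receptors Adipor1 (774, 705 and 750) and Adipor2 (500.3, 403 and 503) and the leptin receptor Lepr (85.1, 73.9 and 73.6) stayed within 1.25-fold between arrays. Of 8 genes of adipokine receptors and signalling, 1 passed 2-fold for DSS against CON, Socs3, the cytokine signalling inhibitor, which was 13.4-fold higher. Beside it stood 5.18% of all genes higher and 1.97% lower. In liver Adipor2 read 14109, 8077 and 7611, and it was 1.85-fold lower in DSSPAR than in CON. Liver Lepr was 1.76-fold higher in DSS than in CON and 1.84-fold higher in DSS than in DSSPAR, and Cdh13, an adiponectin-binding cadherin, was at least 2.14-fold lower in DSS than in CON.

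In liver the fat synthesis list contrasted with Fabp4. Of 16 measured genes 8 were at least 2-fold lower in DSS than in CON and none was higher (median -0.84), among them Me1, a source of NADPH for fat synthesis (8.75-fold), Thrsp (4.40-fold), Elovl6 (4.26-fold) and Fasn, the fatty acid synthase (4.02-fold). Of all genes 4.2% were that much lower and 4.73% higher. For DSSPAR against DSS 4 of 15 were at least 2-fold higher and none was lower (median 0.71), with Fasn 3.79-fold higher. Beside these stood 2.8% of all genes higher and 4.23% lower. Lpl (1799, 5865 and 2016) and Cd36 (748, 1882 and 1033) had DSS as the highest liver array, as Fabp4 did, and were 3.26-fold and 2.52-fold higher in DSS than in CON. They were the only 2 of 13 uptake and lipolysis genes at least 2-fold higher there, beside 4.73% of all genes. Pparg was above the floor in CON and DSSPAR (201 and 214) and below it in DSS (12.02).

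**Figure D3:**
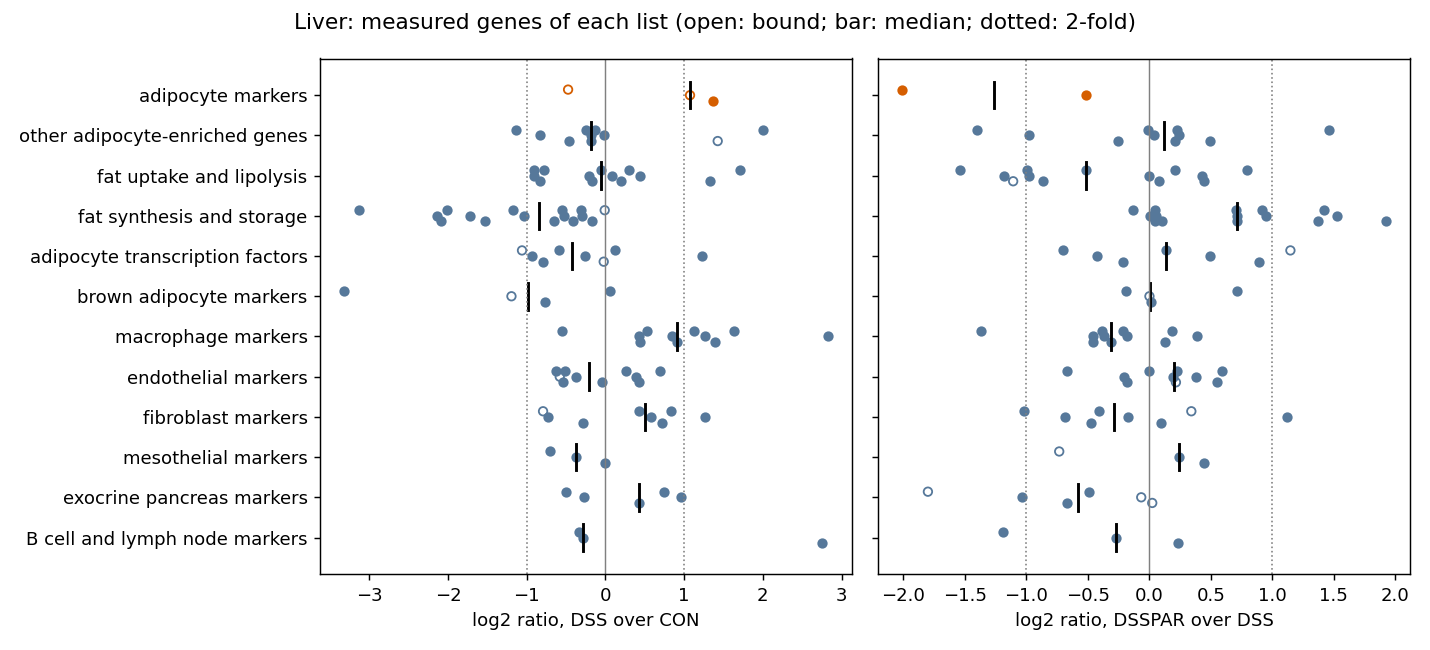
Log2 ratios in liver of the measured genes of each list for DSS over CON and DSSPAR over DSS, with open points for ratios that are bounds, bars for list medians and dotted lines at 2-fold. The fat synthesis list lay at or below 0 for DSS over CON (median -0.84) and mostly above 0 for DSSPAR over DSS (median 0.71), while the Fabp4 point, at 1.36 and -2.01, lay on the opposite sides.

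Markers of other cells differed between the same arrays. In colon 10 of 12 macrophage markers were at least 2-fold higher in DSS than in CON (median 1.72), and their summed intensity was 2165 in CON, 7448 in DSS and 6951 in DSSPAR. For endothelial markers, 4 of 11 measured passed 2-fold upward in DSS against CON (median 0.50) and 2 passed it downward in DSSPAR against DSS (median -0.47), with summed intensities of 591, 974 and 584. Fibroblast markers had a median of 0.87, with 2 of 8 past 2-fold. In liver 5 of 11 measured macrophage markers were at least 2-fold higher in DSS than in CON (median 0.91), with sums of 19117, 34951 and 32972. The brightest of these markers, Csf1r, read 6575, 9522 and 12431. For DSSPAR against DSS 8 of these 11 markers had log2 ratios below 0 and 3 above (median -0.31). At least 2-fold lower was 1 of them, beside 4.23% of all genes. No endothelial marker of 10 passed 2-fold in liver for DSS against CON. Of 4 measured B cell and lymph node markers in colon 3 were at least 2-fold higher in DSS than in CON, Cxcl13, Cr2 and Ms4a1. None of 10 smooth muscle markers passed 2-fold. For DSS against CON 5.18% of all genes were at least 2-fold higher in colon and 4.73% in liver. For DSSPAR against DSS in colon 1.24% were at least 2-fold lower. The part of these cells in the members' values was not tested.

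Markers of the exocrine pancreas were also high on the array on which Adipoq was high. All 11 measured markers were above the floor in DSS colon, against 3 in CON and 3 in DSSPAR. Of these 11, 9 were at least 2-fold higher in DSS than in CON (median 3.05), led by Prss2, at least 23.2-fold, although Cela1, the brightest, was lower (2554 in CON and 1628 in DSS), and 9 were lower by that much in DSSPAR against DSS (median -3.05). Of all genes 5.18% were that much higher in the first comparison and 1.24% that much lower in the second. Markers below the floor in CON and DSSPAR entered only through the DSS array, in which they were high, so they had to differ. Both medians are bounds set by the floor. Without a floor the medians were 5.59 and -5.35. With the floor at the 75th percentile the medians were 1.27 and -1.27. Of 7 mesothelial markers 1 was above the floor in CON, 2 in DSS and 1 in DSSPAR, too few to describe that cell type, with Upk1b leading at 60.8, 81.2 and 93.8, and Msln and Wt1 were below the floor in all. Whether the colon pools differed in attached tissue was not tested.

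**Figure D4:**
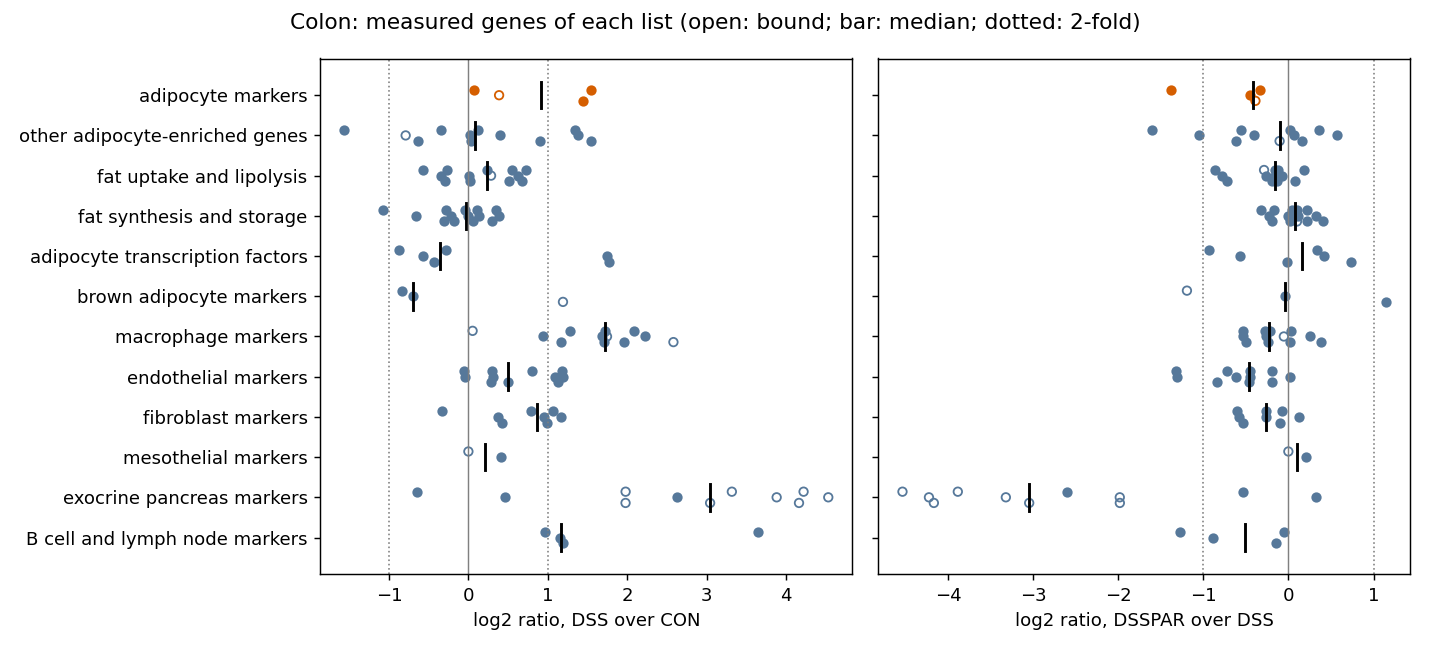
Log2 ratios in colon of the measured genes of each list for DSS over CON and DSSPAR over DSS, drawn as for liver. Of the adipocyte markers Adipoq and Fabp4 lay beyond 2-fold for DSS over CON and Adipoq alone for DSSPAR over DSS, and the exocrine pancreas markers had medians of 3.05 and -3.05 on the same arrays. Both of these medians are bounds set by the floor.

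The genes most like Adipoq in colon were sought by Euclidean distance between log2 intensities over the 3 colon arrays, each gene centred on its own mean, among 10543 other genes above the floor on all 3. The 5 nearest were Kcne4, an accessory subunit of potassium channels (distance 0.13; 56.9, 178 and 72.1 in CON, DSS and DSSPAR), Col5a1, a collagen chain (0.15), Kcnj8, a potassium channel pore subunit (0.23), Abcc9, a sulphonylurea receptor (0.24), and Lpo, a peroxidase (0.25). Car3 ranked 7 and Angptl4 ranked 10. Fabp4 was 352 in this order and Plin4 was 3000, at distances of 0.72 and 1.07. With 3 arrays a short distance says only that the arrays rank and space alike.

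**Figure D5:**
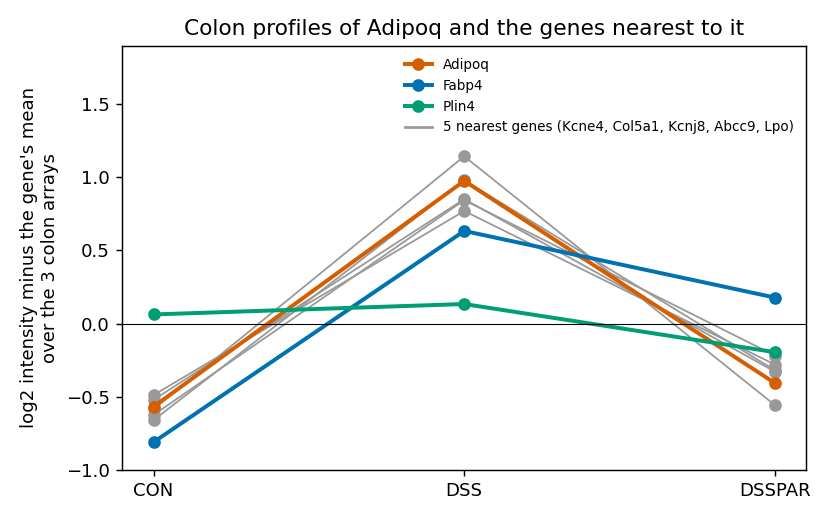
Log2 intensity minus the gene's mean over the 3 colon arrays for Adipoq, Fabp4 and Plin4 and for the 5 genes nearest to Adipoq (grey). Adipoq and the grey genes peaked in DSS and were below their means in CON and DSSPAR, whereas Fabp4 stayed above its mean in DSSPAR and Plin4 varied least.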

How the data were processed

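RNA of 7 mice per group was pooled and hybridised to 1 Affymetrix mouse genome array per group and tissue. The deposited values are linear intensities from MAS5, as named in the submitters' processing notes, which scales each array by 1 factor; no source used here gives its version or target. After trimming 2% at both ends, arrays averaged 106.2 to 111.0 in colon and 500.0 in liver. All 6 value columns were matched to samples by their labels and 0 were left unused.

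Of 45101 probe sets, 34958 carried 1 symbol in the platform annotation, 932 several and 9211 were not listed; the latter kinds stayed unnamed. A gene was represented by its brightest probe set in a tissue, by mean log2 intensity. Log2 ratios used a floor at the tissue's median intensity, a gene entered if 1 of its arrays lay above it, and 2-fold was the threshold for counts. No test was run. The spread between probe sets is the interquartile range, scaled to an SD, of how far apart the ratios of a gene's 2 brightest lay.

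The text names the members, with every form of their families on the array, at most 4 genes of each other list with the largest ratios in a comparison, genes so named in their other comparisons, and the 5 genes nearest to Adipoq. Genes named beyond that rule (Cidec, Ucp1, Cidea, Adipor1, Msln and Wt1) were chosen for their role after their values were seen. The members and the 21 lists were chosen with earlier results of these data known. Alternatives were another floor or none, other scalings, other uses of probe sets and a 3-fold threshold. The ratio step was tested on simulated data. Python 3.11.15, NumPy 2.4.6, pandas 2.3.3 and matplotlib 3.10.9 were used.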

Additional observations from a re-analysis of the deposited data

Results flagged for a closer look

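In 3 cases the same contrast had opposite signs in colon and liver, which rests on 1 array per group and was not tested. Retn for DSS against CON had log2 ratios of 0.39 in colon and -0.47 in liver, both bounds set by the floor. Plin4 for DSSPAR against CON had -0.26 in colon and 0.56 in liver, the latter a bound, and the colon value was 0.023 with arrays centred on their medians. Fabp4 for DSSPAR against CON had 0.99 in colon and -0.65 in liver; in liver both bright probe sets were lower in DSSPAR than in CON.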

How the results depend on the processing

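No paired analysis was possible because each group had 1 array and no test was run. Adipoq kept its direction and stayed past 2-fold for DSS against CON and for DSSPAR against DSS in colon under every alternative in which it was measured, with log2 ratios of 1.53 to 1.63 and -1.38 to -1.18. With the floor at the 75th percentile (104 in colon, 367 in liver) Adipoq, Plin4 and Retn were no longer measured. This left 1 member higher for DSS against CON in colon and 1 in liver, and 0 lower for DSSPAR against DSS in colon. The shares of all genes were 3.68%, 3.71% and 0.7%, in that order. With no floor 3 members, Lep among them, were higher for DSS against CON in colon, beside 10.2% of all genes. For DSSPAR against DSS 2 were lower in colon (8.42% of all genes) and 2 in liver (14.5%). For DSSPAR against CON 1 was higher in colon (8.76%) and 1 in liver (8.74%). In liver 1 was lower for DSS against CON (15.1%) and 3 were lower for DSSPAR against CON (16.4%). Centring arrays on their medians, or on the probe sets that pass the floor, made 1 member higher for DSSPAR against CON in colon. Of all genes 7.5% and 4.08% were that much higher. The mean over probe sets and leaving out probe sets of shared type each left 1 member higher for DSS against CON in colon and in liver. Beside these stood 4.51% and 4.23% of all genes with the mean, and 4.88% and 4.58% without shared probe sets. The mean gave 1 lower for DSSPAR against CON in liver (3.52% of all genes). Leaving out shared probe sets gave 0 lower for DSSPAR against DSS there (4.29%). At 3-fold 0 members passed for DSS against CON in either tissue or for DSSPAR against DSS in colon. For DSS against CON 1.76% of all genes were that much higher and 0.519% lower in colon, and 1.07% and 0.691% in liver. For DSSPAR against DSS in colon 0.298% were lower and 0.00853% higher. Fabp4 turned sign for DSS against CON in liver with the mean over probe sets (log2 ratio -0.090). It also did so in liver without probe sets of shared type (-0.52), since both bright Fabp4 probe sets are of that type. The colon value without them was -0.0038, a bound. It came from 1425809_at, which barely passed the floor in CON and was raised to it in DSS, so no sign can be read.

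The 12 counts of all genes past the threshold ranged from 46 to 619. They ranged from 20 to 275 with the higher floor, 1295 to 2991 with none, 79 to 1007 with arrays centred on medians and 1 to 210 at 3-fold. Centring on medians shifted every log2 ratio by 0.084 (DSS against CON) to 0.28 (DSSPAR against CON) in colon and by 0.15 to 0.31 in liver. It moved the share of genes past 2-fold that were higher from 24.0% to 57.8% for DSSPAR against DSS and from 62.6% to 88.0% for DSSPAR against CON in colon, and from 39.8% to 67.0% and 48.6% to 84.3% in liver. Intensity near or below the floor limits Adipoq, Retn and Lep in both tissues and Plin4 in liver.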
